A study of Homo sapiens with 30 samples.

Results

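The genes described here are 28 genes of cholesterol and fatty acid synthesis, the pathway controlled by the sterol regulatory element-binding proteins (SREBPs). They were taken by symbol from a table of 26228 genes measured by RNA-Seq. Of the 28 genes, 27 had a mean level of at least 1 FPKM (fragments per kilobase of transcript, corrected for library size) and were tested among 11575 genes. The remaining gene was DHCR7, a reductase of the last steps of cholesterol synthesis, which was listed at 0 in 29 of 30 libraries.

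The libraries came from SH-EP, an established human neuroblastoma (NB) cell line of mesenchymal identity without MYCN amplification, and from 4 stable lines derived from it with a retroviral transgene. The transgene encoded WT MYCN or the phosphorylation-site mutants T58A, S62A, or T58A S62A, in each case under an exogenous promoter. Parental SH-EP cells carried no MYCN transgene, and whether each stable line was 1 clone or a pool is not given in the sources used here. Each of the 5 lines was treated for 6 hours with DMSO, the vehicle, or with 1 μM CYC065, an inhibitor of CDK9 and CDK2, and 3 libraries were made per group. All groups were grown in DMEM with 10% FBS.

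Cells make cholesterol and fatty acids from acetyl-CoA. Cholesterol synthesis runs through mevalonate and farnesyl pyrophosphate to squalene, and then through lanosterol to cholesterol. SREBP precursors are held in the endoplasmic reticulum by SCAP and the INSIG proteins when sterols are plentiful. When sterols fall, SCAP escorts the SREBPs to the Golgi, where they are cut, and the released part enters the nucleus and binds the promoters of synthesis genes. SREBP2, from SREBF2, is known mainly for cholesterol genes, and SREBP1, from SREBF1, mainly for fatty acid genes.

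The promoters of 24 of the 28 genes were found by symbol in RefSeq (GRCh38.p14), and the 250 bases before each start site were searched on both strands for 3 motifs. The SREBP site was searched as TCACNCCAC, the E-box that MYC proteins bind as CACGTG, and the CCAAT box, bound by NF-Y, as CCAAT. No motif searched is part of another. The SREBP site was in 1 of the 24 windows, that of SREBF2, and in 0.875% of 27305 promoters of the same length. The E-box was in 3 of the 24, those of INSIG1, SC5D, and SCAP, and in 6.49% of all. CCAAT was in 17 of the 24 and in 33% of all. A match is a description of letters and not evidence of binding. The windows below belong to genes on which the comparisons turn: SREBF2, STARD4, MSMO1, and TM7SF2, which were lower in every MYCN line, SCD, which was higher in every MYCN line on FPKM as deposited but not after spike-in scaling, and MVK, which had the largest fall with CYC065. Capitals mark the SREBP site in SREBF2 and CCAAT or its reverse complement in all 6 windows. Each is written 5′ to 3′ on the strand of its gene.
SREBF2 (chr22:41832855-41833104, plus strand): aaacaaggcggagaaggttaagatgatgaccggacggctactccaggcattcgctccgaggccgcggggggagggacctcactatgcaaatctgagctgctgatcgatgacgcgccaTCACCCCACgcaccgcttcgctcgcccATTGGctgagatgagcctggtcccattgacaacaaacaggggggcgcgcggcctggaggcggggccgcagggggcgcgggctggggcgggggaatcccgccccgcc
STARD4 (chr5:111512536-111512785, minus strand): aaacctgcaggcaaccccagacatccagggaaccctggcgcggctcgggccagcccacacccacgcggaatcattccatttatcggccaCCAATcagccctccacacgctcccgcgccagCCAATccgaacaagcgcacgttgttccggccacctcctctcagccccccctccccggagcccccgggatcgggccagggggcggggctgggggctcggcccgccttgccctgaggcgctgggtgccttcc
MSMO1 (chr4:165327419-165327668, plus strand): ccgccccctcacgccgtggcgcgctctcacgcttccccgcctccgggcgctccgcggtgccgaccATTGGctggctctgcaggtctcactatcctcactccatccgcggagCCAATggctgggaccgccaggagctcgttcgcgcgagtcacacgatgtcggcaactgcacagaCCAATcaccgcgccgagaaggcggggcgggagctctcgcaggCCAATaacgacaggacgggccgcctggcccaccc
TM7SF2 (chr11:65111622-65111871, plus strand): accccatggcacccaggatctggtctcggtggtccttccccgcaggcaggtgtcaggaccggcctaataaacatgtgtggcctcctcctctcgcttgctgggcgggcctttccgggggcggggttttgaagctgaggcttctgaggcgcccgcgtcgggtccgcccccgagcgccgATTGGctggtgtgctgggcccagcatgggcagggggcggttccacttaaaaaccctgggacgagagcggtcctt
SCD (chr10:100346983-100347232, plus strand): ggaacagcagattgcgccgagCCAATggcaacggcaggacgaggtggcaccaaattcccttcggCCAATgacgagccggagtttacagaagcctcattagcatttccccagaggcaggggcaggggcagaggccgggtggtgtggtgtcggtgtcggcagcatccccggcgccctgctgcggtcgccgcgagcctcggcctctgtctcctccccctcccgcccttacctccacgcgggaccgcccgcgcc
MVK (chr12:109573544-109573793, plus strand): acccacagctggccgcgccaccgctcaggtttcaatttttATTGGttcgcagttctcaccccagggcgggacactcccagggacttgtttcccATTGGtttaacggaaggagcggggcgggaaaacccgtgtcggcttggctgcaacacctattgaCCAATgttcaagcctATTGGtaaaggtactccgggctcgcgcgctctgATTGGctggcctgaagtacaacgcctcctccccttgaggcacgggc

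MYCN was listed at 0 in all 6 SH-EP libraries. Its mean level in DMSO was 12.9 ± 1.09 FPKM (SD, n = 3) in the WT line, 8.52 ± 1.29 in the T58A line, 5.72 ± 0.778 in the S62A line, and 13.5 ± 3.83 in the T58A S62A line. All 8 mesenchymal marker genes examined were at 1 FPKM or more in every group, and their summed level, carried mostly by VIM, was 3802 to 6700 FPKM in SH-EP libraries and 1756 to 3205 FPKM in MYCN-line libraries. Not all moved with the sum: TWIST1 averaged 22.6 FPKM in SH-EP in DMSO and 27.6 FPKM in the WT line, 26.6 in the T58A line, 20.9 in the S62A line, and 36.6 in the T58A S62A line. The 9 adrenergic markers summed to 5.89 to 17.8 FPKM and 10.4 to 24.6 FPKM, respectively, mostly from GATA2. Of the 9, 3 to 6 were at 0 in all libraries of a group and at most 2 reached 1 FPKM. Depth relative to the deepest library was 0.473 to 1 for DMSO and 0.295 to 0.559 for CYC065. The factors that scale each library to its ERCC spike-in RNAs, which were added by cell number, were 3.08 to 3.32 for SH-EP in DMSO and 0.720 to 2.02 for the MYCN lines in DMSO. With CYC065 they were 0.259 to 1.44 over all lines. SH-EP libraries reused index sequences of the MYCN-line libraries, so a separate library pool and the absence of the transgene cannot be told apart. The labels do not say that libraries came from separate cultures, so p-values measure the spread between these libraries, which may be technical. The standard error (SE) and p-value of a mean over lines also rest on that spread. They do not measure how much the lines differ from each other, and every mean against SH-EP uses the same SH-EP libraries. The part of marker levels, depth, and spike-in recovery in the results was not tested.

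The first comparison asked how the pathway differed between MYCN-expressing cells and parental SH-EP in DMSO. On FPKM as deposited, genes of the pathway differed in both directions. The 4 fatty acid genes were higher in all 4 MYCN lines, except ACLY in the T58A S62A line. STARD4, SREBF2, INSIG1, TM7SF2, MSMO1, and IDI1, which act in sterol sensing, transport, and synthesis, were lower in all 4, and the other genes of those roles were higher, lower, or not called depending on the line. In the WT line, 7 of the 27 genes were higher and 7 lower, against 31.6% and 22.6% of all 11575 genes; without 1 of the SH-EP libraries, 4 were higher. In the T58A line, 10 were higher and 9 lower, against 30.9% and 23.3% of all genes. In the S62A line, 4 were higher and 13 lower (48.1% of the genes), against 31% and 23.4% of all. In the T58A S62A line, 6 were higher and 15 lower (55.6%), against 31.2% and 24.1% of all. The counts are from limma's moderated test on log2(FPKM + 0.1) at a Benjamini-Hochberg adjusted p under 0.05 over all genes tested, the threshold used throughout. FASN, SCD, and ACACA were higher in all 4 lines (19.2% of all genes were), and 6 were lower in all 4 (13.4% of all genes were). In 4 genes all 12 MYCN-line libraries lay above all 3 SH-EP libraries (21.8% of all genes), and in 6 genes all 12 lay below (16.5% of all genes).

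**Figure D1:**
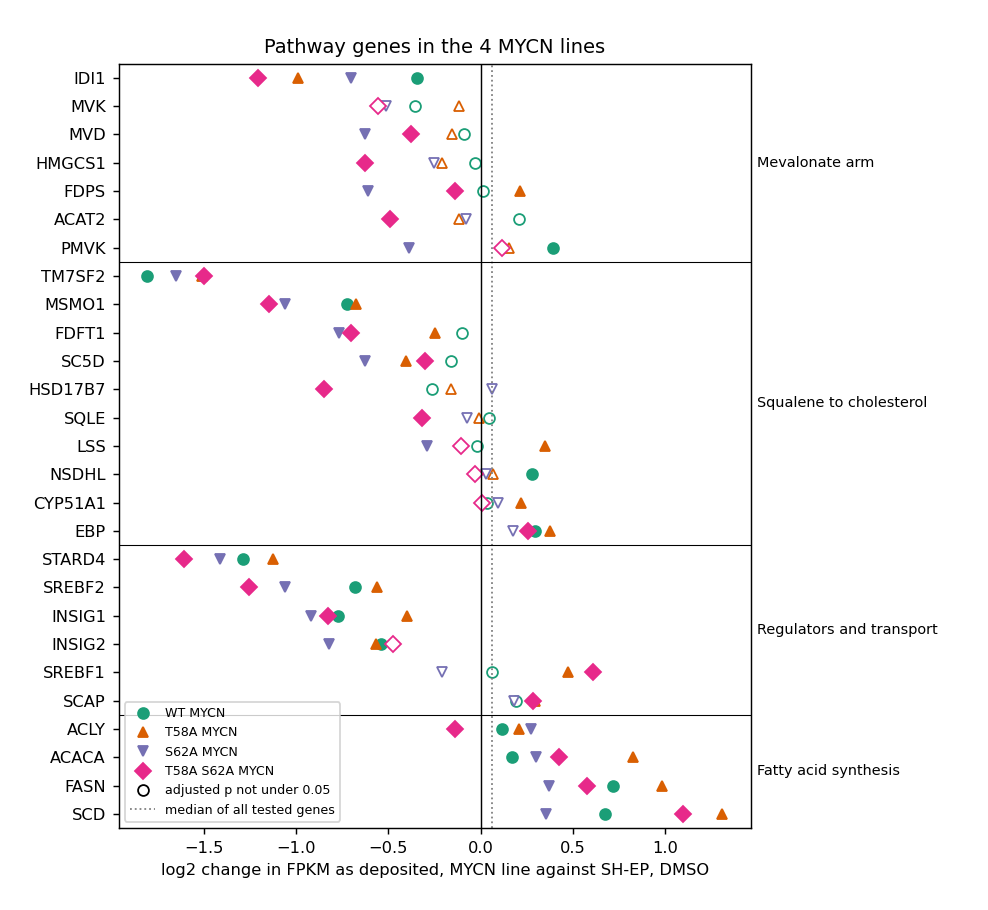
The x axis is the log2 change in FPKM as deposited for every MYCN line relative to parental cells in DMSO, and each row is 1 of the 27 tested genes, grouped by role. Filled symbols passed the threshold, open ones did not, and the dotted line is the median of all tested genes (0.06). The fatty acid genes lie to the right, except ACLY in the T58A S62A line, and STARD4, SREBF2, INSIG1, TM7SF2, MSMO1, and IDI1 lie to the left in all 4 lines.

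The direction of these changes is relative to the total RNA of a library. When libraries were scaled to their spike-ins, the median of all tested genes over the 4 MYCN lines was -1.18 on the log2 scale against SH-EP, and 91.4% of all genes were called lower. Fewer cells recovered and less RNA per cell cannot be told apart in such values. On that scale all 27 genes were lower on average in the MYCN lines, including 10 genes, FASN, SCD, and ACACA among them, whose average was above SH-EP as deposited. Scaling multiplies all genes of a library by the same factor, so positions relative to the median gene stay nearly the same by construction. SCD lay 0.79 above the median as deposited and 0.78 above it after spike-in scaling, and STARD4 lay at -1.42 and -1.44 from it.

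Among the regulators, SREBF2 (chr22:42229109-42303310, plus strand, GRCh37) and SREBF1 (chr17:17713713-17740316, minus strand) differed in direction as deposited in the T58A and T58A S62A lines. SREBF2 was at 12.5, 13.1, and 12.4 FPKM in the 3 SH-EP libraries in DMSO. It was at 8.24, 7.69, and 7.67 FPKM in the WT line, 8.39, 7.67, and 9.66 in the T58A line, 5.76, 6.22, and 6.06 in the S62A line, and 5.96, 4.64, and 5.23 in the T58A S62A line. Every MYCN-line library was below every SH-EP library, and over the 4 lines the log2 change averaged -0.89 ± 0.07 (SE; limma adjusted p = 2.28e-10).

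SREBF1 was at 8.68, 8.28, and 8.07 FPKM in SH-EP. It was at 9.12, 8.95, and 8.096 FPKM in the WT line, 9.96, 13.1, and 12.04 in the T58A line, 7.52, 6.8001, and 7.28 in the S62A line, and 14.1, 10.4, and 14.1 in the T58A S62A line. All 6 libraries of the 2 lines with T58A lay above all SH-EP libraries as deposited, and the 3 S62A libraries lay below them. The log2 change was 0.47 ± 0.11 in the T58A line (limma adjusted p = 7.91e-04) and 0.61 ± 0.11 in the T58A S62A line (adjusted p = 5.13e-05). It was 0.06 ± 0.11 in the WT line and -0.21 ± 0.11 in the S62A line, which did not pass. After spike-in scaling it was lower than SH-EP in WT, T58A, and S62A, and its change in T58A S62A was -0.23 ± 0.20, which did not pass.

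INSIG1 and INSIG2, which retain SCAP when sterols are plentiful, were both lower. INSIG1 was at 20.3, 20.7, and 21.4 FPKM in SH-EP. It was at 11.3, 11.7, and 13.5 FPKM in the WT line, 16.1, 14.5, and 16.9 in the T58A line, 10.8, 11.2, and 10.8 in the S62A line, and 10.2, 12.2, and 12.7 in the T58A S62A line. All 12 MYCN-line libraries were below the 3 SH-EP libraries, with the T58A line nearest to them, and the mean log2 change was -0.73 ± 0.07 (limma adjusted p = 8.33e-10). INSIG2 was at 4.91, 6.17, and 6.65 FPKM in SH-EP, 3.81, 4.401, and 3.83 in the WT line, 4.19, 3.64, and 3.97 in the T58A line, 3.91, 3.89, and 2.29 in the S62A line, and 3.2004, 5.58, and 4.13 in the T58A S62A line. Its SH-EP and T58A S62A libraries overlapped, and it passed the threshold in the other 3 lines (mean log2 change over the 4 lines -0.60 ± 0.17, adjusted p = 0.00407).

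SCAP, the escort of the SREBPs, was at 16.4, 15.6, and 15.9 FPKM in SH-EP. It was at 20.5, 17.7, and 16.7 FPKM in the WT line, 19.9, 18.5, and 20.4 in the T58A line, 18.8, 16.1, and 19.5 in the S62A line, and 20.4, 17.2, and 20.97 in the T58A S62A line. It was higher than SH-EP in the T58A line (log2 change 0.29 ± 0.08) and in the T58A S62A line (0.28 ± 0.08), and the other 2 lines, at 0.19 ± 0.08 and 0.18 ± 0.08, did not pass. Its direction, too, was reversed by spike-in scaling (mean over the 4 lines -1.02, as against 0.24 as deposited).

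STARD4, a carrier that moves cholesterol between membranes, had the largest fall after TM7SF2. It was at 35.6, 31.1, and 36.2 FPKM in SH-EP, 12.2, 14.2, and 15.8 in the WT line, 16.9, 15.1, and 15.02 in the T58A line, 13.3, 13.4, and 11.8 in the S62A line, and 11.2, 11.4, and 10.9 in the T58A S62A line. The groups did not overlap, and the MYCN-line means were 0.326 to 0.456 of the SH-EP mean. The mean log2 change was -1.36 ± 0.07 (limma adjusted p = 1.48e-14), and it was lower in all 4 lines after spike-in scaling as well (mean -2.62).

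**Figure D2:**
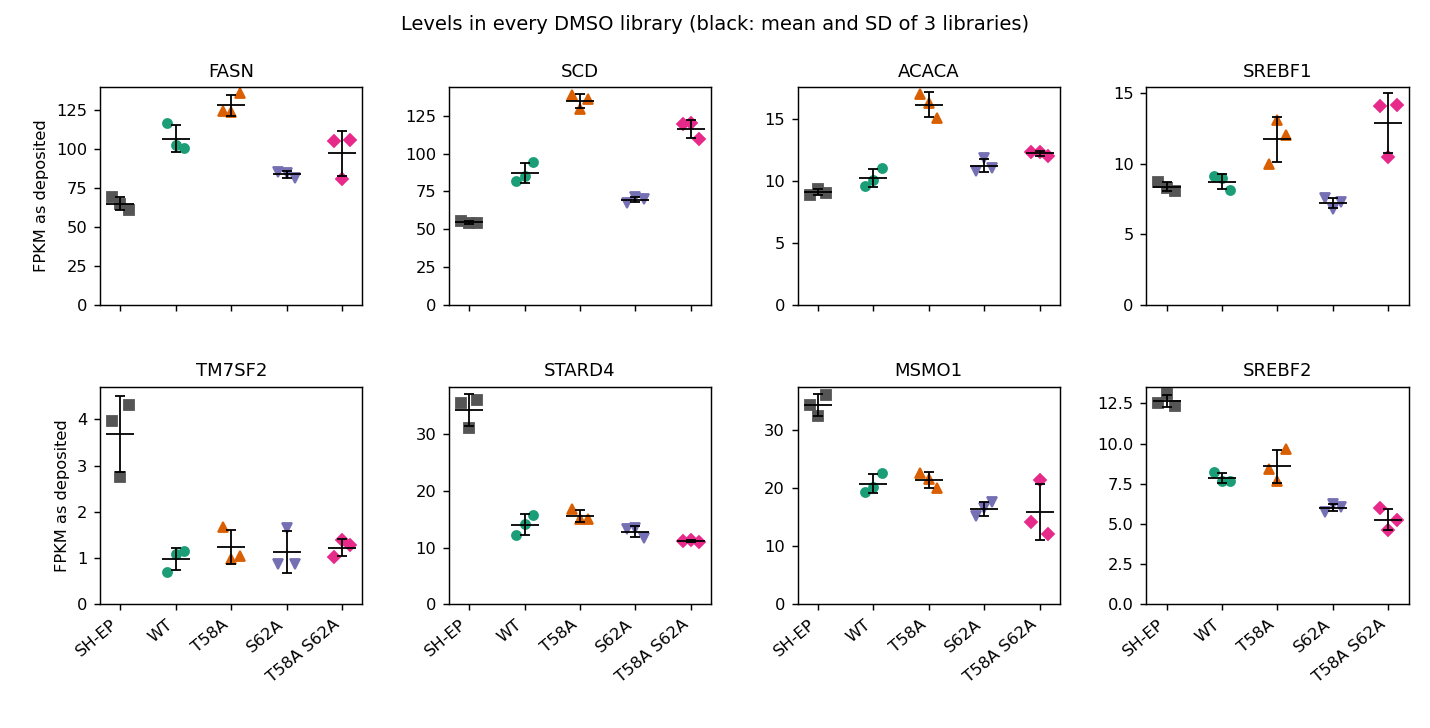
Each panel shows FPKM as deposited in the 15 DMSO libraries, by line, for 1 gene; colored symbols are libraries and black marks the mean and SD of 3. FASN, SCD, and ACACA are lowest in SH-EP, and TM7SF2, STARD4, MSMO1, and SREBF2 are highest there, without overlap between SH-EP and the MYCN lines. SREBF1 is highest in the 2 lines with T58A.

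In the arm from squalene to cholesterol, 10 genes were tested, of which 2 were lower in the WT line, 4 in the T58A line, 5 in the S62A line, and 6 in the T58A S62A line, and 2, 3, 0, and 1 were higher, respectively. MSMO1, the C4-methylsterol oxidase, was at 34.4, 32.4, and 36.1 FPKM in SH-EP, 19.4, 20.3, and 22.6 in the WT line, 22.7, 21.6, and 20.03 in the T58A line, 15.1, 16.5, and 17.5 in the S62A line, and 14.2, 21.4, and 12.1 in the T58A S62A line. No MYCN-line library reached the SH-EP range, although the T58A S62A libraries were spread widely. The mean log2 change of MSMO1 was -0.90 ± 0.10 (limma adjusted p = 2.10e-08).

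TM7SF2, a sterol C14 reductase, was a low gene, and its exons overlap those of VPS51 on the same strand in the annotation. It was at 3.97, 2.75, and 4.32 FPKM in SH-EP, 0.707, 1.09, and 1.15 in the WT line, 1.67, 0.988, and 1.05 in the T58A line, 0.868, 1.66, and 0.878 in the S62A line, and 1.01, 1.39, and 1.28 in the T58A S62A line. The groups did not overlap, and the mean log2 change was -1.61 ± 0.41 (limma adjusted p = 0.00144). FDFT1, which makes squalene, was lower in 3 lines (log2 -0.25 in the T58A line, -0.77 in the S62A line, and -0.70 in the T58A S62A line). SC5D, the lathosterol desaturase, was lower in the same 3 lines (-0.40, -0.62, and -0.30). EBP, the sterol isomerase, was higher in all lines but S62A as deposited (mean 0.28 ± 0.08). SQLE, HSD17B7, LSS, NSDHL, and CYP51A1 averaged between -0.30 and 0.09 over the 4 lines and did not pass on that average.

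In the mevalonate arm, 7 genes were tested, of which 1 was lower in the WT line, 1 in the T58A line, 4 in the S62A line, and 5 in the T58A S62A line. IDI1, the isomerase of isopentenyl pyrophosphate, was lower in all 4 lines. It was at 47.1, 49.2, and 51.8 FPKM in SH-EP, 35.6, 39.6, and 41.2 in the WT line, 26.6, 24.4, and 23.4 in the T58A line, 30.5, 30.97, and 29.2 in the S62A line, and 19.8, 23.9, and 20.5 in the T58A S62A line. The SH-EP libraries were all above the others, with the WT line next, and the mean log2 change was -0.81 ± 0.05 (limma adjusted p = 3.35e-12). HMGCS1, which makes HMG-CoA, was lower in the T58A S62A line alone among the 4 (-0.62 ± 0.12), as was ACAT2, the cytosolic acetoacetyl-CoA thiolase (-0.49 ± 0.10). MVD, the mevalonate pyrophosphate decarboxylase, was lower in the S62A line (-0.62 ± 0.11) and the T58A S62A line (-0.38 ± 0.11). FDPS, the farnesyl pyrophosphate synthase, was lower in those 2 lines and higher in the T58A line (0.21 ± 0.05), and PMVK, the phosphomevalonate kinase, was higher in the WT line (0.39 ± 0.10) and lower in the S62A line (-0.39 ± 0.10). MVK, the mevalonate kinase, passed in 0 lines (mean -0.39 ± 0.23, limma adjusted p = 0.155). Reads of FDPS and HSD17B7 may be shared with near-identical copies in the table, FDPSP2 and HSD17B7P2, which makes their levels less certain, and exons of CYP51A1 and EBP overlap those of unnamed genes on the same strand.

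Among the fatty acid genes, SCD, the stearoyl-CoA desaturase, had the largest rise as deposited. It was at 55.7, 53.9, and 53.9 FPKM in SH-EP, 81.7, 85.3, and 94.7 in the WT line, 139, 129.7, and 136 in the T58A line, 67.6, 71.05, and 70.3 in the S62A line, and 119.7, 120.3, and 109.6 in the T58A S62A line. The groups did not overlap, and the line means were 1.28 to 2.48 times the SH-EP mean (mean log2 change 0.86 ± 0.04, limma adjusted p = 3.23e-15). After spike-in scaling its log2 change was 0.34 ± 0.19 in the T58A line and 0.25 ± 0.19 in the T58A S62A line, which did not pass, and it was lower in the WT (-0.59 ± 0.19) and S62A lines (-1.61 ± 0.19).

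FASN, the fatty acid synthase, was at 68.8, 64.6, and 60.3 FPKM in SH-EP, 117, 102, and 100.3 in the WT line, 124, 123, and 136 in the T58A line, 84.9, 84.6, and 80.99 in the S62A line, and 105, 80.5, and 105 in the T58A S62A line. ACACA, the acetyl-CoA carboxylase, was at 8.88, 9.35, and 9.06 FPKM in SH-EP, 9.63, 10.1, and 11.1 in the WT line, 17.1, 16.4, and 15.1 in the T58A line, 10.8, 11.8, and 11.1 in the S62A line, and 12.3, 12.4, and 12.05 in the T58A S62A line. Both were highest in the T58A line, and no MYCN-line library overlapped SH-EP. Mean log2 changes as deposited were 0.66 ± 0.07 for FASN (limma adjusted p = 8.62e-09) and 0.43 ± 0.05 for ACACA (adjusted p = 4.79e-08), and both turned negative after spike-in scaling (-0.60 and -0.82). ACLY, which makes cytosolic acetyl-CoA from citrate, was higher as deposited in 3 lines by 0.11 to 0.27 and lower in the T58A S62A line (-0.14 ± 0.04).

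The second comparison set each mutant line against the WT MYCN line in DMSO, all with a transgene. The S62A and T58A S62A lines had more pathway genes lower than higher, and the T58A line had more higher than lower. Against WT, the T58A line had 8 genes higher and 2 lower (10.7% and 13% of all genes). The S62A line had 1 higher and 12 lower, or 44.4% of the 27 (10.1% and 14% of all genes). The T58A S62A line had 3 higher and 12 lower, also 44.4% (9.43% and 14.2% of all genes). With spike-in scaling the counts became 4 higher and 0 lower for T58A (8.1% and 0.432% of all genes). They became 0 and 25 for S62A (0.181% and 74.9% of all genes) and 3 and 0 for T58A S62A (23.3% and 1.02%). The falls in the T58A S62A line are thus relative to its library total. Fitting only the groups compared gave 3 higher and 1 lower for T58A and 1 higher and 5 lower for T58A S62A. MYCN transcript levels differed between the lines as given above, and their part in these differences was not tested.

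IDI1, PMVK, and ACAT2 had the largest changes against WT. IDI1 was lower in the T58A line (-0.64 ± 0.07, limma adjusted p = 2.19e-07), the S62A line (-0.36 ± 0.07, adjusted p = 3.75e-04), and the T58A S62A line (-0.86 ± 0.07, adjusted p = 1.21e-09). PMVK was at 42.6, 34.1, and 32.6 FPKM in WT, 30.1, 33.9, and 28.2 in T58A, 22.8, 18.7, and 21.9 in S62A, and 28.7, 27.3, and 33.7 in T58A S62A. The S62A libraries lay below all the others, and S62A was the only mutant line in which PMVK passed (-0.78 ± 0.10, limma adjusted p = 5.53e-06). ACAT2 was at 46.6, 42.4, and 47.1 FPKM in WT, 39.5, 39.2, and 30.4 in T58A, 35.3, 37.9, and 38.3 in S62A, and 24.3, 34.5, and 25.6 in T58A S62A. It was lower than WT in all 3 mutant lines, most in T58A S62A (-0.70 ± 0.10, adjusted p = 8.64e-06), where 1 library of the 3 stood above the other 2.

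SCD, SREBF1, and ACACA, chosen after their values were seen, were higher in both lines with T58A than in WT, as deposited and after spike-in scaling. SCD was higher as deposited by 0.63 ± 0.05 in T58A and 0.42 ± 0.05 in T58A S62A, and lower in S62A (-0.32 ± 0.05). SREBF1 was higher by 0.41 ± 0.11 and 0.55 ± 0.11, and ACACA by 0.65 ± 0.06 and 0.26 ± 0.06. After spike-in scaling the values in T58A and T58A S62A were 0.94 and 0.85 for SCD, 0.72 and 0.97 for SREBF1, and 0.96 and 0.68 for ACACA, all past the threshold. The difference between lines with and without T58A was not itself tested.

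Ratios of genes within a library depend little on how libraries are scaled. They were computed as a description after the values above were seen. The log2 ratio of SREBF1 to SREBF2 in DMSO was -0.65 to -0.52 in SH-EP, 0.08 to 0.22 in WT, 0.24 to 0.77 in T58A, 0.13 to 0.38 in S62A, and 1.15 to 1.42 in T58A S62A. SREBF2 thus exceeded SREBF1 in SH-EP, and SREBF1 exceeded SREBF2 in every MYCN-line library in DMSO. The mean log2 level of the 4 fatty acid genes minus that of the 10 squalene-to-cholesterol genes was 1.28 to 1.39 in SH-EP, 1.98 to 2.03 in WT, 2.27 to 2.42 in T58A, 2.07 to 2.08 in S62A, and 2.15 to 2.41 in T58A S62A. Without TM7SF2, which was low, it was 1.06 to 1.12 in SH-EP, and the lowest MYCN line, WT, was at 1.52 to 1.64. With CYC065 the fatty acid to sterol ratio was higher than in DMSO in each library of each line (1.81 to 1.91 in SH-EP), and the SREBF1 to SREBF2 ratio was lower in SH-EP (-1.26 to -1.05), WT (-0.46 to -0.22), S62A (-0.20 to -0.02), and T58A S62A (0.92 to 1.06), while the T58A libraries overlapped (0.22 to 0.33).

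**Figure D3:**
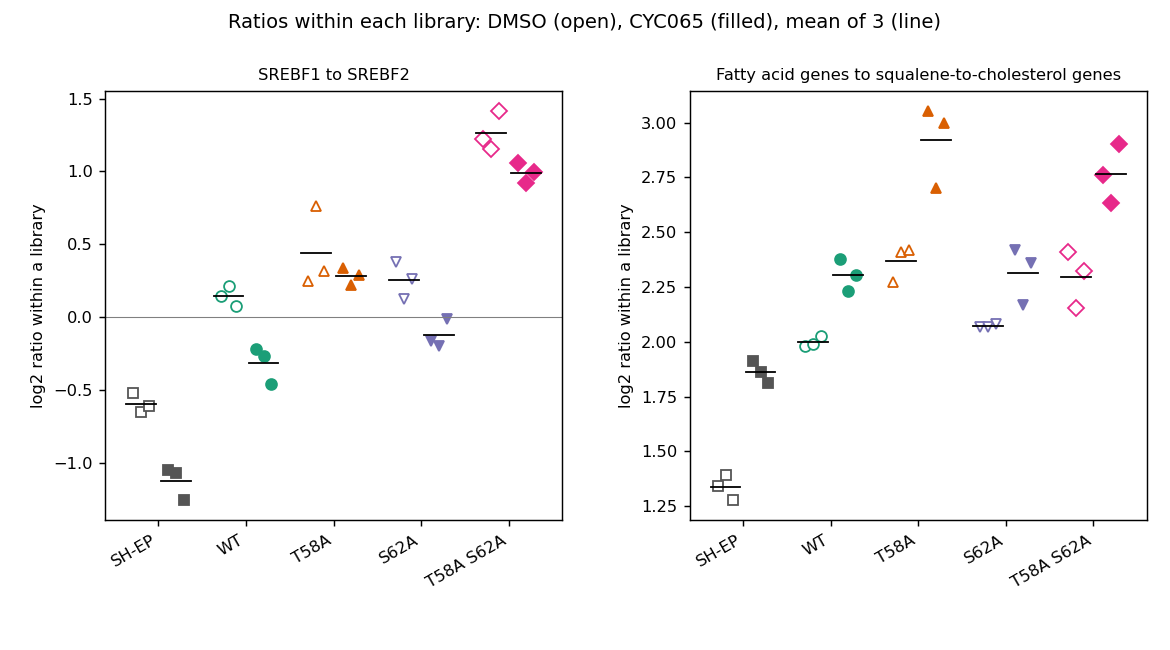
The y axis is a log2 ratio within a library, of SREBF1 to SREBF2 (left) and of the mean of 4 fatty acid genes to the mean of 10 squalene-to-cholesterol genes (right), for DMSO (open) and CYC065 (filled) in each line; lines are means of 3. SH-EP is lowest in both panels in DMSO, and the filled symbols lie above the open ones on the right.

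The third comparison asked how 6 hours of CYC065 changed the pathway. On spike-in scaled values, transcripts fell across the genome, and the pathway fell with them but mostly by less. The median of all tested genes over the 5 lines was -1.20 on the log2 scale, and 21 of the 27 genes fell by less than that. In SH-EP, 20 of the 27 genes were lower, against 76.3% of all genes. In the WT line all 27 were lower (93.7% of all genes). The T58A line had 21 lower genes (84.5% of all), the S62A line 27 (90.2%), and the T58A S62A line 19 (76.4%). Scaling with only the 21 most abundant spike-ins left 12 lower genes in SH-EP and 10 in T58A. No pathway gene was higher in any line. In all 5 lines 17 genes were lower, against 69.8% of all genes.

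On FPKM as deposited, which measures each gene against its library total, most of these genes were instead higher, so their direction depends on the scale. In SH-EP 19 genes were higher and 5 lower (42.7% and 33.5% of all genes), and in the WT line 19 and 4 (37% and 34.2%). In T58A 21 were higher and 3 lower (38.1% and 33.3%), in S62A 16 and 4 (38.8% and 34.6%), and in T58A S62A 19 and 4 (38.6% and 34.2%). In all 5 lines 13 genes were higher, ACAT2, ACLY, EBP, FASN, FDFT1, FDPS, LSS, MSMO1, PMVK, SCAP, SCD, SREBF2, and STARD4 (28.5% of all genes), and MVK and SQLE were lower (24.4% of all genes). The sign of the mean change differed between the scales for 21 of the 27 genes, and those negative on both were MVK, SQLE, INSIG2, TM7SF2, NSDHL, and CYP51A1.

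**Figure D4:**
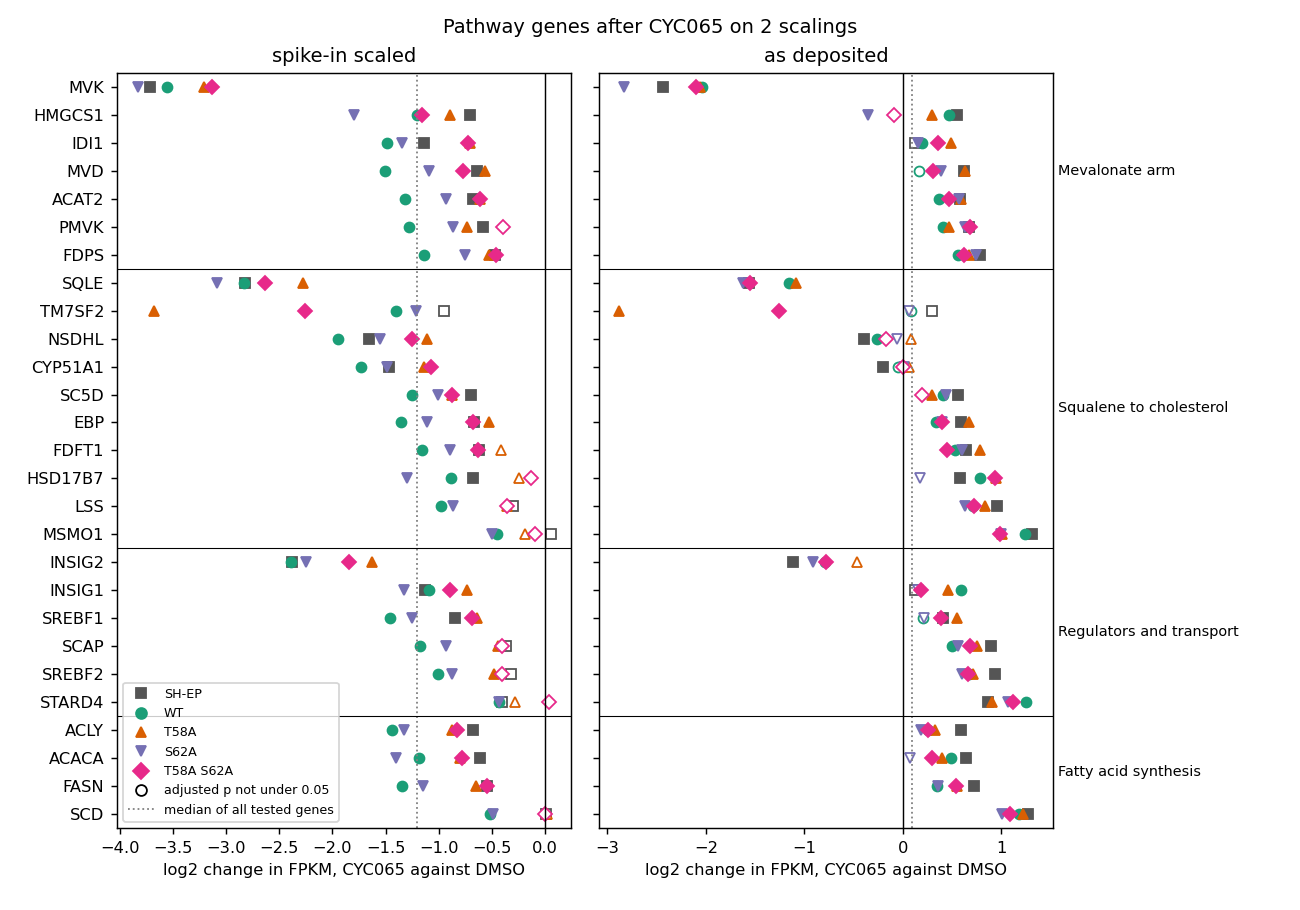
Each row is a gene and the x axis is the log2 change with CYC065 against DMSO in each of 5 lines, on spike-in scaled values (left) and as deposited (right); filled symbols passed the threshold, and the dotted line is the median of all tested genes over the 5 lines. Most genes lie below 0 but right of the median on the left, and above 0 on the right. MVK, SQLE, and INSIG2 lie left of the median in every line on both.

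MVK, SQLE, and INSIG2 had the largest falls. MVK was at 18.8, 17.5, and 21.2 spike-in scaled FPKM in SH-EP with DMSO and 1.65, 1.42, and 1.07 with CYC065. It went from 9.49, 4.37, and 5.67 to 0.385, 0.373, and 0.569 in the WT line and from 12.1, 6.41, and 9.43 to 0.972, 1.18, and 0.592 in the T58A line. It went from 3.59, 3.49, and 3.102 to 0.0725, 0.215, and 0.1704 in the S62A line and from 9.71, 5.33, and 7.17 to 0.799, 0.422, and 1.12 in the T58A S62A line. The groups did not overlap in any line, and 4.50% to 10.6% of the DMSO level was left. The mean log2 change was -3.49 ± 0.15 (limma adjusted p = 1.54e-18), or -2.29 as deposited.

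SQLE, the squalene epoxidase, was at 70.3, 67.4, and 76.98 spike-in scaled FPKM in SH-EP with DMSO and 10.6, 11.8, and 8.02 with CYC065. It went from 35.02, 25.8, and 31.6 to 4.604, 3.81, and 4.28 in WT and from 40.5, 27.1, and 43.9 to 7.099, 8.07, and 7.13 in T58A. It went from 18.2, 18.1, and 15.7 to 1.899, 1.96, and 2.02 in S62A and from 33.7, 32.9, and 29.6 to 5.35, 3.81, and 6.39 in T58A S62A. Between 11.3% and 20.0% of the DMSO level was left, without overlap, and the mean log2 change was -2.73 ± 0.08 (limma adjusted p = 1.43e-21), or -1.40 as deposited.

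INSIG2 was at 15.9, 18.98, and 22.05 spike-in scaled FPKM in SH-EP with DMSO and 3.79, 3.91, and 3.01 with CYC065. It went from 6.29, 4.95, and 4.898 to 0.942, 0.828, and 1.05 in WT and from 8.03, 4.37, and 7.72 to 2.16, 1.52, and 2.52 in T58A. It went from 3.199, 3.65, and 1.65 to 0.392, 0.468, and 0.629 in S62A and from 6.45, 10.1, and 6.52 to 1.95, 1.93, and 2.202 in T58A S62A. The groups did not overlap in any line. Its mean log2 change was -2.10 ± 0.12 (limma adjusted p = 1.17e-15), whereas that of its relative INSIG1 was -1.04 ± 0.09 (adjusted p = 1.71e-11); as deposited, INSIG2 was at -0.81 and INSIG1 at 0.30. The difference between INSIG1 and INSIG2 was not tested.

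SCD, MSMO1, and STARD4 had the smallest falls. SCD was at 181, 166, and 179 spike-in scaled FPKM in SH-EP with DMSO and 184, 196, and 151 with CYC065. It went from 135, 95.95, and 121 to 96.6, 67.3, and 82.4 in WT and from 266, 156, and 265 to 227, 229.8, and 221 in T58A. It went from 55.3, 66.5, and 50.6 to 44.2, 35.1, and 42.9 in S62A and from 241, 217, and 173 to 228, 169.5, and 236 in T58A S62A. It was lower in WT and S62A by the test, and the DMSO and CYC065 libraries overlapped in every line except S62A. Its mean log2 change was -0.20 ± 0.09 (limma adjusted p = 0.0337), and this call was lost with 9 of the single libraries left out and with no filter on low values. As deposited SCD was 202% to 241% of its DMSO level.

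MSMO1 was at 112, 99.8, and 119.8 spike-in scaled FPKM in SH-EP with DMSO and 120.3, 122, and 102 with CYC065. It went from 31.96, 22.8, and 28.9 to 22.4, 17.5, and 20.9 in WT and from 43.5, 25.9, and 38.9 to 35.2, 31.2, and 27.02 in T58A. It went from 12.4, 15.5, and 12.6 to 10.04, 8.25, and 10.2 in S62A and from 28.5, 38.7, and 19.2 to 28.3, 20.7, and 29.8 in T58A S62A. Like SCD it was lower in WT and S62A, where the libraries did not overlap, and the mean log2 change was -0.24 ± 0.09 (limma adjusted p = 0.0205), or 1.11 as deposited.

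STARD4 was at 116, 95.8, and 119.9 spike-in scaled FPKM in SH-EP with DMSO and 89.6, 91.1, and 70.8 with CYC065. It went from 20.1, 15.999, and 20.2 to 15.1, 11.96, and 14.6 in WT and from 32.4, 18.1, and 29.2 to 22.6, 21.3, and 19.5 in T58A. It went from 10.9, 12.6, and 8.48 to 7.96, 7.92, and 7.42 in S62A and from 22.6, 20.6, and 17.3 to 21.4, 17.8, and 22.8 in T58A S62A. It passed in WT and S62A, and its libraries overlapped in T58A and T58A S62A. Its log2 change averaged -0.30 ± 0.08 over the 5 lines (limma adjusted p = 0.00119), or 1.04 as deposited. In T58A with DMSO, the library lowest for SCD, MSMO1, and STARD4 had a spike-in factor of 1.20, beside 1.92 and 1.94. A smaller factor lowers every gene of a library alike, and its part in the overlap was not tested.

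**Figure D5:**
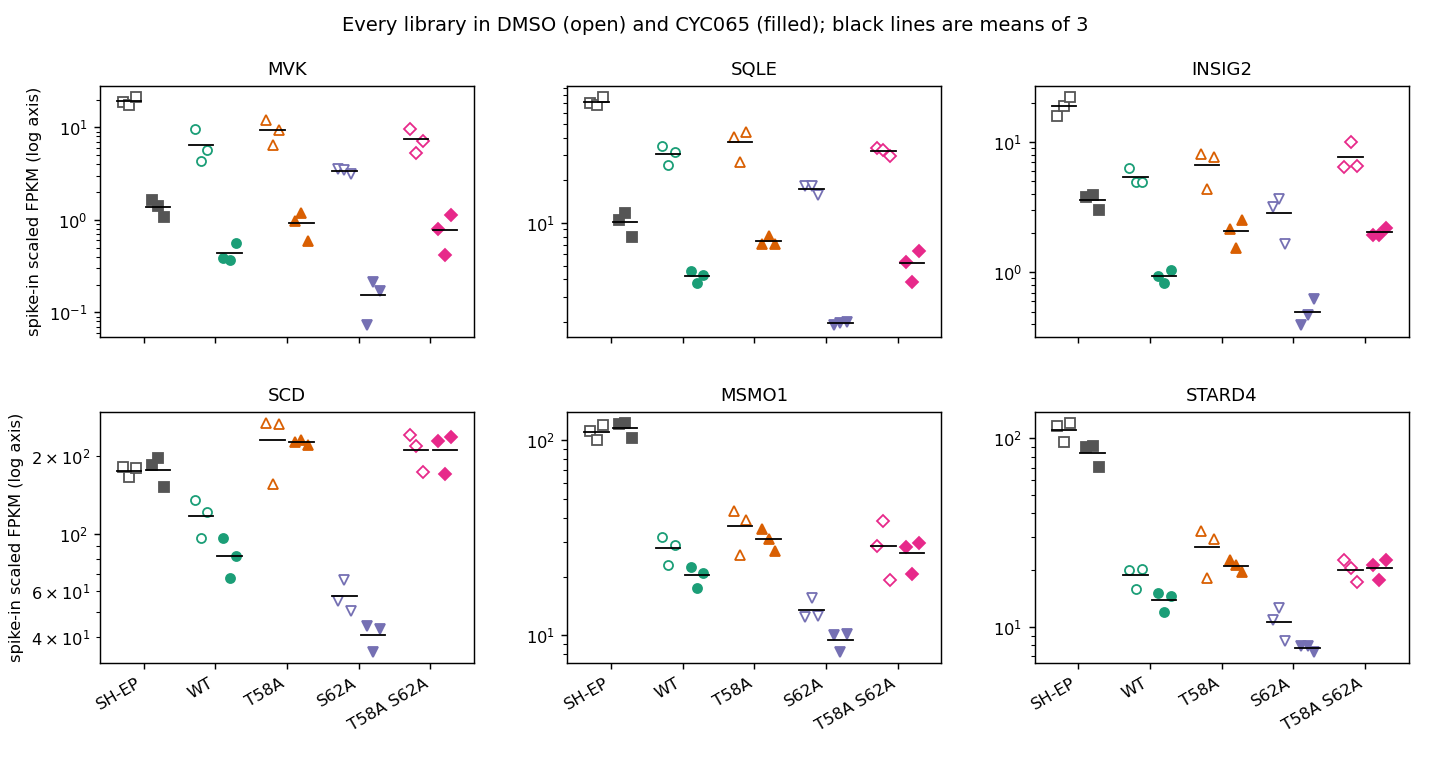
Each panel shows spike-in scaled FPKM on a log axis for 1 gene in every library, with DMSO open and CYC065 filled in each of the 5 lines, and means of 3 as lines. MVK, SQLE, and INSIG2 separate in every line, and SCD, MSMO1, and STARD4 lie close together in DMSO and CYC065.

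The SREBP genes and SCAP fell less than the median gene with CYC065. The mean log2 change on spike-in scaled values was -0.98 ± 0.09 for SREBF1 (limma adjusted p = 3.82e-11), -0.62 ± 0.10 for SREBF2 (adjusted p = 1.13e-06), and -0.66 ± 0.09 for SCAP (adjusted p = 1.54e-07). As deposited, the CYC065 libraries held SREBF2 at 23.8, 23.9, and 25.3 FPKM in SH-EP, 13.4, 11.8, and 12.5 in WT, 11.8, 15.1, and 15.5 in T58A, 9.34, 9.26, and 8.87 in S62A, and 7.995, 8.53, and 8.63 in T58A S62A. All lay above the DMSO libraries of the same line. SREBF1 was at 11.4, 11.3, and 10.5 FPKM in SH-EP with CYC065, 11.5, 9.81, and 9.07 in WT, 14.96, 17.5, and 18.9 in T58A, 8.34, 8.04, and 8.77 in S62A, and 16.7, 16.3, and 17.3 in T58A S62A. SCAP was at 29.9, 30.2, and 29.4 FPKM in SH-EP, 28.7, 24.6, and 24.6 in WT, 30.1, 35.4, and 33.9 in T58A, 27.97, 25.4, and 26.99 in S62A, and 31.1, 31.9, and 30.8 in T58A S62A. Its CYC065 libraries were above the DMSO libraries in each line. INSIG1 was at 22.6, 23.8, and 21.8 FPKM in SH-EP, 17.5, 16.9, and 20.7 in WT, 22.03, 21.5, and 21.8 in T58A, 12.2, 11.6, and 12.6 in S62A, and 12.7, 13.1, and 14.1 in T58A S62A, and INSIG2 was at 2.66, 2.72, and 2.57, 2.02, 2.31, and 2.502, 2.97, 2.097, and 3.598, 1.25, 1.81, and 2.13, and 2.19, 2.77, and 2.27 in the same order. INSIG2 was thus below its DMSO libraries on both scales in all lines. INSIG1, as deposited, was above its DMSO libraries in every line except T58A S62A, where they overlapped.

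By role, mean spike-in scaled log2 changes were -3.49 to -0.67 in the mevalonate arm (median -0.92), -2.73 to -0.24 from squalene to cholesterol (median -0.90), -2.10 to -0.30 among regulators (median -0.82), and -1.03 to -0.20 among fatty acid genes (median -0.90). MVK stood apart in its arm, as SQLE did in its own, and their immediate neighbors in the pathway fell less. PMVK, which acts on the product of MVK, was at -0.77 ± 0.08, and FDFT1 and LSS, which act before and after SQLE, were at -0.74 ± 0.09 and -0.57 ± 0.10. In the sterol arm TM7SF2 (-1.90), NSDHL, a C4-demethylating dehydrogenase (-1.502), and CYP51A1, the lanosterol demethylase (-1.38), also fell by more than the median gene. HMGCS1, IDI1, MVD, ACAT2, FDPS, SC5D, EBP, HSD17B7, FASN, ACACA, and ACLY fell by between 0.65 and 1.15 on the log2 scale (HSD17B7 and HMGCS1 at the ends).

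The last comparison asked whether the response to CYC065 differed between each MYCN line and SH-EP. Few pathway genes passed on spike-in scaled values, and the 3 that did passed in 1 line each. In the WT line MVD passed (16% of all genes did), in T58A TM7SF2 (2.66% of all), in S62A HMGCS1 (4.83% of all), and in T58A S62A none did (5.46% of all; 0 pathway genes at an unadjusted p under 0.05). HMGCS1 was at 29.2, 24.98, and 30.9 in SH-EP with DMSO and 17.4, 19.5, and 15.2 with CYC065, and at 6.15, 6.61, and 5.42 and 2.12, 1.44, and 1.504 in S62A. The calls at the adjusted threshold rest on single libraries. Leaving out 1 library at a time gave 0 to 9 called genes in WT, 0 to 1 in T58A, and 0 to 1 in S62A. The response of HMGCS1 in S62A was lower than in SH-EP by a log2 difference of -1.10 ± 0.28 (limma adjusted p = 0.0218). As deposited, 8 pathway genes passed in the WT line (28.6% of all genes), 8 in the T58A line (23.9%), 7 in the S62A line (24.6%), and 4 in the T58A S62A line (25.4%). HMGCS1 passed as deposited in S62A (-0.90) and T58A S62A (-0.64), and ACLY in all 4 lines, between -0.41 and -0.26.

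Of 36 other genes of fatty acid elongation, lipid handling, and SREBP processing, 33 were tested. Against SH-EP, 5 were higher and 11 lower on the mean of the 4 lines as deposited (34.6% and 26.3% of all genes), with a median log2 change of -0.06 beside 0.06 for all genes and -0.13 for the 27. The largest rises were in MCAT, the mitochondrial malonyltransferase (1.18 ± 0.18), and TMEM97, a sterol-binding membrane protein (1.01 ± 0.08). The largest falls were in NPC2, which carries cholesterol out of lysosomes (-1.500 ± 0.05), and ACSS2, the acetyl-CoA synthetase of the cytosol (-1.08 ± 0.09). The fatty acid elongases ELOVL1, ELOVL5, and ELOVL6 were at -0.31, 0.03, and 0.17. The desaturases FADS1, FADS2, and SCD5 were at 0.06, 0.06, and -0.56, so the rise of SCD was not shared by these desaturases. After spike-in scaling 0 of the 33 were higher (1.09% of all genes), and MCAT and TMEM97 were at -0.05 and -0.25. With CYC065 all 33 were lower on the mean of 5 lines after spike-in scaling, with a median of -0.95. Of all genes 94.4% were lower, and their median was -1.20. As deposited 19 were higher and 8 lower (46.9% and 39.8% of all genes), with NPC2 (0.96 ± 0.03) and TECR, an enoyl-CoA reductase (0.91 ± 0.06), the largest rises. The largest falls as deposited were in OXSM, the mitochondrial ketoacyl synthase (-2.10 ± 0.15), and MCAT (-1.22 ± 0.10).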

How the data were processed

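Poly(A) RNA with ERCC spike-ins added by cell number was sequenced from 30 libraries of 10 groups. The authors aligned reads with HISAT2 to hg19 and deposited FPKM values made with Cufflinks. The deposited FPKM are not scaled to the spike-ins, whose median ran from 6.26 FPKM in an SH-EP library in DMSO to 80.2 in an S62A library with CYC065. They include values for 92 spike-ins, and whether spike-in reads count in the library totals was not tested. Read depth was estimated only in relative terms. Columns were assigned to groups by name, since their replicate numbers differ from those of the labels, and 0 columns of other samples were present.

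Genes averaging 1 FPKM or more were tested as log2(FPKM + 0.1) with limma 3.58.1 in R 4.3.3 (lmFit and eBayes with a trend), in 1 fit over all 10 groups, with Benjamini-Hochberg adjustment over 11575 genes. The pseudocount understates the change of low genes. Comparisons in DMSO used FPKM as deposited; those with CYC065 used FPKM divided by the median of 55 spike-ins averaging 1 FPKM or more, and each is given on the other scale too. The script was tested on simulated data.

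The members and gene lists were chosen with earlier results of these data known. Named genes were the 3 higher and 3 lower with the largest smallest change among those called in all 4 lines, the SREBP regulators, the 3 largest and 3 smallest falls with CYC065, the 3 with the largest change against WT, and 2 per direction among other pathway genes; remaining genes are given by role. Alternatives were other scalings, pseudocounts, filters, fold requirements, spike-in sets, only the groups compared, leaving out each library, and, added after seeing the data, a block on the column number. Promoters came from RefSeq (GRCh38.p14) and gene positions from the GRCh37 annotation.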

Additional observations from a re-analysis of the deposited data

Results flagged for a closer look

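For 3 genes, the CYC065 response of 1 MYCN line was unlike that of SH-EP in a test of the difference itself, on spike-in scaled values. MVD in the WT line fell further than in SH-EP by a log2 difference of -0.87 ± 0.28 (SE, n = 3 libraries per group; limma adjusted p = 0.0431). TM7SF2 in the T58A line fell further by -2.73 ± 0.66 (adjusted p = 0.0198), and it was listed at 0 in 2 of the 3 T58A libraries with CYC065 (0, 0.455, and 0 FPKM as deposited). HMGCS1 in the S62A line fell further by -1.10 ± 0.28 (adjusted p = 0.0218). On this scale the median difference of all genes from SH-EP was -0.51 in WT, -0.0054 in T58A, and -0.28 in S62A. As deposited, the differences of the 3 genes in these lines were -0.45 for MVD, -3.17 for TM7SF2, and -0.90 for HMGCS1, all past the threshold. Each call was 1 of the 27 genes in its line (3.7%), beside 16% of all genes in WT, 2.66% in T58A, and 4.83% in S62A. The count of called genes in WT fell to 0 at a pseudocount of 1, without the filter, and in a fit of only the groups compared, and in T58A it fell to 0 at a pseudocount of 1. Leaving out 1 library moved the count in all 12 such fits for WT, in 5 for T58A, and in 6 for S62A.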

How the results depend on the processing

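Scaling decided direction. With spike-in scaling of the DMSO comparisons, 0 genes were higher and 27, 24, 27, and 23 lower in the WT, T58A, S62A, and double mutant lines against SH-EP. Of all genes, 88.7%, 78%, 95.1%, and 70.2% were lower in the same lines. Against WT 4 were higher and 0 lower in T58A (8.1% and 0.432% of all genes), and 0 and 25 in S62A (0.181% and 74.9%). In T58A S62A 0 were lower than in WT (1.02% of all genes). Mean log2 changes against SH-EP that turned negative were PMVK -1.19, CYP51A1 -1.17, NSDHL -1.17, EBP -0.98, SREBF1 -1.02, SCAP -1.02, FASN -0.60, ACACA -0.82, SCD -0.40, ACLY -1.15. With FPKM as deposited, CYC065 lowered 5, 4, 3, 4, and 4 genes in SH-EP and then the WT, T58A, S62A, and double mutant lines. Of all genes, 33.5%, 34.2%, 33.3%, 34.6%, and 34.2% were lower. In the 4 MYCN lines 8, 8, 7, and 4 genes responded differently from SH-EP (28.6%, 23.9%, 24.6%, and 25.4% of all genes). Mean changes that turned positive were ACAT2 0.52, HMGCS1 0.18, PMVK 0.57, MVD 0.42, IDI1 0.26, FDPS 0.68, FDFT1 0.60, LSS 0.77, MSMO1 1.11, HSD17B7 0.68, EBP 0.48, SC5D 0.38, INSIG1 0.30, SREBF1 0.35, SREBF2 0.72, SCAP 0.68, STARD4 1.04, FASN 0.50, ACACA 0.38, SCD 1.15, ACLY 0.32. With libraries centred on their median, CYC065 lowered 4, 3, 3, 3, and 3 genes (29.7%, 28.3%, 27.3%, 29%, and 28.8% of all genes). In the MYCN lines 7, 7, 4, and 4 responded differently from SH-EP. Of all genes, 11.6%, 11.3%, 11.8%, and 11% had a higher response there and 14.1%, 10.2%, 11.1%, and 13.2% a lower one. The positive means were ACAT2 0.68, HMGCS1 0.34, PMVK 0.74, MVD 0.59, IDI1 0.43, FDPS 0.84, FDFT1 0.77, LSS 0.94, CYP51A1 0.13, MSMO1 1.27, NSDHL 0.0063, HSD17B7 0.85, EBP 0.64, SC5D 0.54, INSIG1 0.47, SREBF1 0.52, SREBF2 0.88, SCAP 0.84, STARD4 1.205, FASN 0.67, ACACA 0.54, SCD 1.32, ACLY 0.49.

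Requiring a change of at least 1.5-fold left 2 genes higher in WT, 3 higher and 4 lower in T58A, 0 higher in S62A, and 2 higher and 9 lower in T58A S62A against SH-EP, and 2 higher and 1 lower, 0 and 3, and 0 and 4 for T58A, S62A, and T58A S62A against WT. Fitting only the groups compared gave 3 higher and 1 lower in T58A and 1 higher and 5 lower in T58A S62A against WT, and 0, 0, and 3 differing responses in WT, T58A, and S62A. The differing responses in WT numbered 0 at a pseudocount of 1, 2 at 0.01, 0 without the filter, and 3 at a mean of at least 5 FPKM, and in T58A 0 at a pseudocount of 1 and 0 at 5 FPKM. With only the 21 spike-ins of at least 50 FPKM, CYC065 lowered 12 genes in SH-EP and 10 in T58A, and 0 responses differed in WT. Leaving out 1 library at a time gave 4 to 7 higher genes in WT against SH-EP, 0 to 9 differing responses in WT, 0 to 1 in T58A, and 0 to 1 in S62A, 1 to 3 lower genes in T58A against WT, and 1 to 2 higher genes in S62A against WT. Apart from scaling, the calls of HMGCS1 and SREBF1 on the mean of the 4 MYCN lines were each lost without either of 2 SH-EP libraries in DMSO. A call as lower on that mean was gained by HSD17B7 in 2 fits that left out a library and by ACAT2 in 1. MVK gained such a call at a pseudocount of 1. The cause of these shifts was not tested, except that a fold requirement leaves fewer calls by construction. The filter at 5 FPKM also removes TM7SF2, the gene called in T58A, whose mean was 1.57 FPKM. Columns are numbered 0 to 2 and titles 1 to 3, so the labels tie no column to a replicate; a replicate block on the column number, added after seeing the data, gave 7 differing responses in WT (1 without it) and moved no other count past 1.5 times. Deviations from group means correlated between libraries of the same column number at a median of 0.000259 (range -0.126 to 0.161) and of different numbers at -0.00486, and 13 of 30 libraries were closest to their own number. Depth is not known in reads from FPKM alone, and low genes such as TM7SF2 are the least certain.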
